A study of Rattus norvegicus with 9 samples.

Results

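Potassium channel genes were taken here as all genes whose symbol begins with Kcn, the prefix shared by the pore-forming subunits and by most of their accessory subunits. Probe sets annotated to exactly 1 gene symbol gave 75 such genes, out of 14217 named genes on the array, and each gene was read from its brightest probe set, by mean level. They fell into 18 subfamilies by prefix. Of the 75 genes, 45 passed a filter that removed the dimmest 30% of all probe sets (mean log2 level below 8.51), and these are called the tested genes below. The other 30 were dimmer and are described separately.

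RNA came from the adrenal medulla, the inner tissue of the adrenal gland that secretes adrenaline, of adult rats of 280 to 320 g. Group Control was unstressed. Group 1XIMO had a single immobilization session of 2 h, and group 6XIMO had 6 such sessions, 1 a day. Stressed rats were killed after their last session, at an interval the labels do not give, and both medullae of an animal were taken. Each group had 3 arrays. No strain, sex or pooling of animals is given in the labels, and nothing says that the arrays of a group hold different animals, so the spread behind each p-value may be technical. The label fields that say mouse and brain go against the stated organism, Rattus norvegicus, and were not followed.

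Potassium channels set the resting potential of a cell and end its action potentials. In chromaffin cells, the catecholamine-secreting cells of the medulla, voltage-gated and calcium-activated channels repolarize the membrane after each spike, and leak channels hold it near rest. In the adrenal cortex, leak channels and inward rectifiers hold the steroid-making cells of the outer zone at a negative potential. A change in an mRNA on these arrays is not a measurement of channel protein or current.

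The values are scaled fluorescence intensities, given below as log2(intensity + 16) and called levels. Fold changes are on that same scale, which understates changes of dim probe sets. Errors of levels are SD over 3 arrays, and errors of fold changes are SE of a limma fit across 11287 genes, with p-values adjusted over all of them by Benjamini-Hochberg. A gene passed at an adjusted p under 0.05. The 6XIMO arrays stood apart in the array controls. Their actin 3′/5′ signal ratios, which rise when the labelled RNA is incomplete at its 5′ end, were 231, 6.11 and 8.87 for replicates 1, 2 and 3, against 1.45 to 2.15 in the other 6 arrays. Across genes, correlations of 6XIMO replicate 1 with the remaining arrays were 0.604 to 0.730, and those among the other 8 were 0.854 to 0.983. RNA quality and 6 sessions therefore cannot be told apart in any comparison with 6XIMO. Values are given with all 9 arrays, and for each potassium channel gene described also without 6XIMO replicate 1 where that changed its call or its direction against Control. The spread is estimated over all groups together, so leaving that array out also changes the SE for 1XIMO. Since tissue was measured in bulk, fewer cells of a type and less RNA per cell cannot be told apart.

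With all 9 arrays, 1 of the 45 tested genes, Kcnk5, was higher in 1XIMO than in Control, and 0 were lower by limma (1 at an unadjusted p under 0.05). Of all genes tested, 4.2% were higher and 5.31% lower. In 6XIMO against Control 4 were higher, Kcnk5, Kcns3, Kcnma1 and Kcnj14, and 3 were lower, Kcnh2, Kcnh6 and Kcng2, where 9.36% of all genes were higher and 14.9% lower. Between 6XIMO and 1XIMO 0 passed in either direction (3 higher and 4 lower at an unadjusted p under 0.05), against 5.21% higher and 4.63% lower among all genes. Without 6XIMO replicate 1, 6 of 45 were higher and 2 lower in 1XIMO (all genes 9.77% and 20.2%). In 6XIMO against Control, 5 were higher and 12 lower (all genes 17.9% and 30.3%). As shares of the 45, these were 13.3% and 4.44% in 1XIMO and 11.1% and 26.7% in 6XIMO. No share of the family stood far above that of all genes, and the results below are those of single members. The median log2 fold change of the tested genes was 0.02 in 1XIMO and -0.22 in 6XIMO, beside -0.13 and -0.23 over all genes. Dim transcripts can pass the filter through 1 group: 36 of the 45 had all 3 group means above its level.

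**Figure D1:**
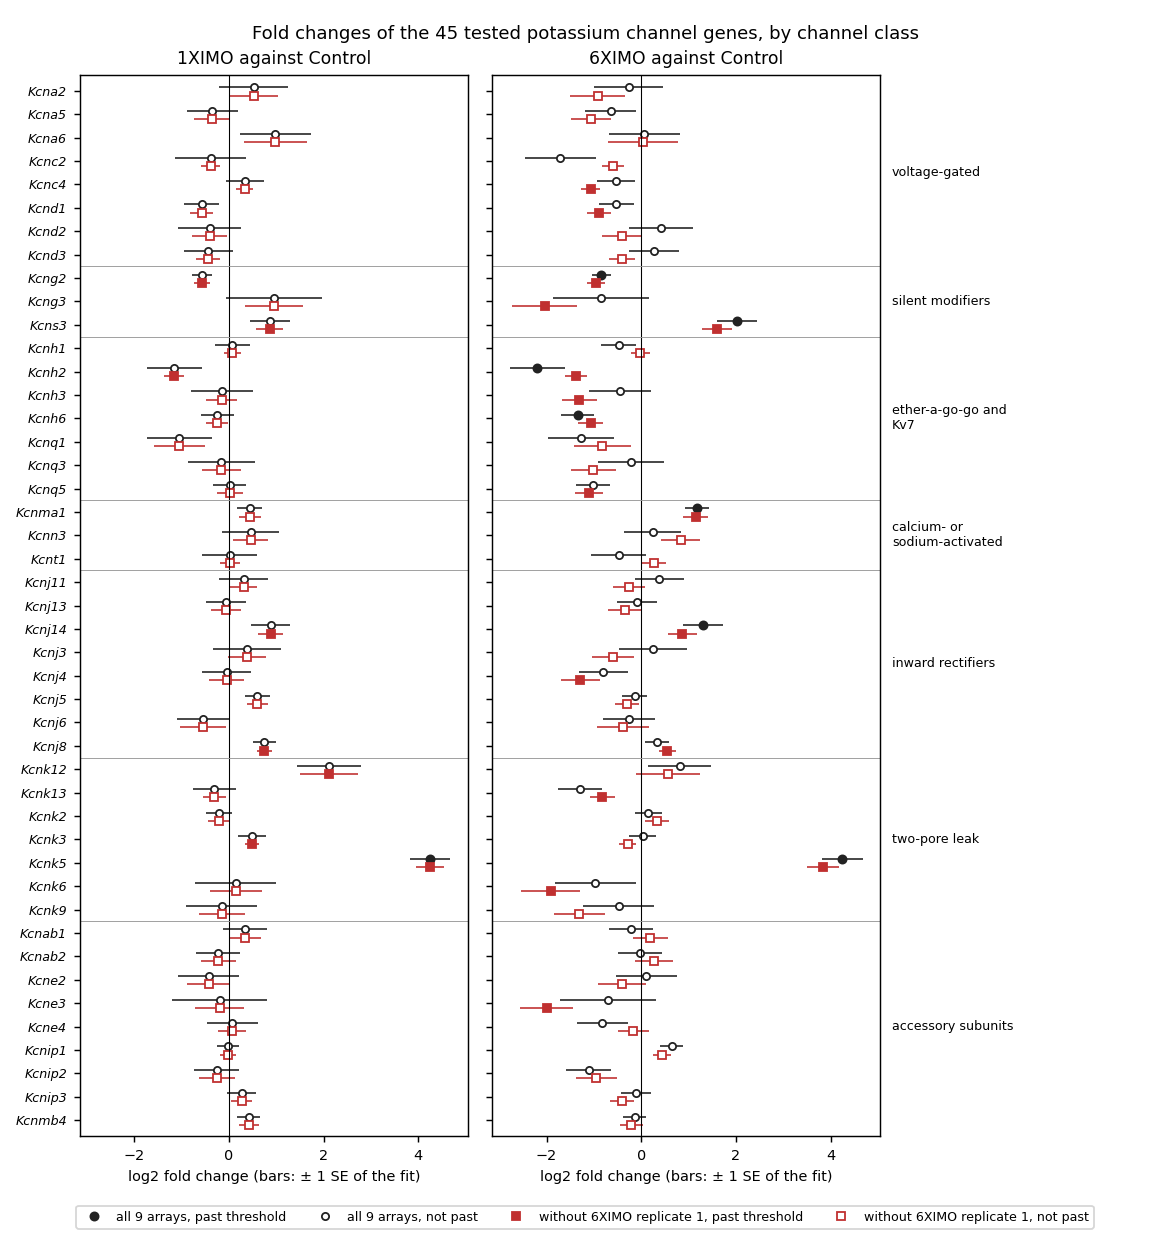
Log2 fold changes against Control of the 45 tested potassium channel genes, in 1XIMO (left) and 6XIMO (right), by channel class; circles are the fit of all 9 arrays and squares the fit without 6XIMO replicate 1, bars are 1 SE, and filled symbols passed the threshold. Kcnk5 lies at 4.25 in both panels with all arrays, while most other genes lie within 1 of zero in 1XIMO.

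The tandem-pore leak channels, whose subunits each carry a pair of pore loops and which pass potassium at rest, held the largest change of the family. Kcnk5, the leak channel TASK-2 that opens at alkaline external pH, had Control levels of 7.16, 6.87 and 6.94. Its levels were 10.71, 11.16 and 11.86 in 1XIMO and 12.06, 10.81 and 10.84 in 6XIMO. All 6 stressed arrays lay more than 3 log2 units above all Control arrays. Kcnk5 rose by 4.25 ± 0.43 after 1 session (19.1-fold, adjusted p = 0.000356) and by 4.25 ± 0.43 after 6 (19-fold, adjusted p = 0.000355). The difference between 6XIMO and 1XIMO was -0.01 ± 0.43 (adjusted p = 0.993). Without 6XIMO replicate 1 the rise in 6XIMO was 3.84 ± 0.34 (14.3-fold, adjusted p = 3.09e-05). It passed in both comparisons in all 24 alternative fits, at 3.82 to 4.52 in 1XIMO and 3.81 to 4.56 in 6XIMO. Kcnk5 has 1 probe set, so the alternatives that change the probe set reused its values. The looser threshold of 0.1 could not lose the call. The mean Control level, 6.99 ± 0.15, was below the level of the filter, which Kcnk5 passed through the stressed groups. It also rose when no filter was used.

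The promoter sequences of Kcnk5 and of Kcns3 are shown because these genes passed in 6XIMO in every alternative fit that included them. Each window runs from 250 bases before to 50 bases after the annotated start in RefSeq's rat assembly GRCr8, at chr15:4171375-4171674 on the plus strand for Kcnk5 and at chr6:39584056-39584355 on the minus strand for Kcns3. Capitals mark the GC box, GGGCGG on either strand.
Kcnk5: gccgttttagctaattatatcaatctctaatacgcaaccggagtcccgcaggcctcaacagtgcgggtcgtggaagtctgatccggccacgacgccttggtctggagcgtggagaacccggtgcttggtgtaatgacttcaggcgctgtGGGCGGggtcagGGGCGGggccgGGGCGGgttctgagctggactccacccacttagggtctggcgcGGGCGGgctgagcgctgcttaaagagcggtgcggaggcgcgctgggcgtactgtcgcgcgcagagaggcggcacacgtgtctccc
Kcns3: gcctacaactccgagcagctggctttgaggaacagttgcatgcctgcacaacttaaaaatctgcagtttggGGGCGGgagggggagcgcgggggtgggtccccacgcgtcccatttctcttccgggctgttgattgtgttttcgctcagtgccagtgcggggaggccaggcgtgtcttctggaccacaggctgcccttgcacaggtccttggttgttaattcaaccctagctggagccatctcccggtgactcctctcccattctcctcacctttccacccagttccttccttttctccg

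The Kcnk5 window held 4 GC boxes and the Kcns3 window 1. Windows of 52 of the 75 genes were in the table, with a median GC content of 62%, against 51.7% over all 33469 windows. A GC box was in 57.7% of the 52, against 33.1% of all. The 52 were limited to 1 window per gene and the 33469 were not, so these shares and those below are not of like sets. The cAMP response element TGACGTCA was in 0 of the 52 windows (1.83% of all), and its core TGACG, which the full element contains, in 12 (23.1%, against 21.2% of all). The AP-1 motif TGANTCA was in 3 (5.77% against 7.33%), the Nr4a motif AAAGGTCA in 2 (3.85% against 1.43%) and the Egr motif GCGTGGGCG in 0 (0.544% of all). Both strands were searched. Neither printed window held any of these other motifs. A match is only a match of letters, and its absence says nothing of sites outside the window.

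Kcnk3, the acid-sensitive leak channel TASK-1 of chromaffin cells and of the outer adrenal cortex, had levels of 13.58, 14.04 and 14.00 in Control. They were 14.30, 14.56 and 14.22 in 1XIMO and 14.56, 13.47 and 13.68 in 6XIMO. The 1XIMO arrays all lay above the Control arrays, whereas 6XIMO overlapped Control. The 1XIMO difference was 0.49 ± 0.29 (adjusted p = 0.394) with all arrays and passed without 6XIMO replicate 1 (0.49 ± 0.15, adjusted p = 0.0368). Its other probe sets past the filter differed by 0.60 and 0.88 in 1XIMO, in the same direction, but by 0.96 and -1.30 in 6XIMO replicates 2 and 3. No direction can be given for Kcnk3 after 6 sessions, since that sign depends on the probe set.

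Kcnk12, a tandem-pore subunit that gives little current by itself, had 1XIMO levels of 10.32, 11.32 and 10.74 against 9.33, 9.34 and 7.39 in Control. The 2 groups did not overlap, and 6XIMO (9.99, 10.25 and 8.24) overlapped Control and lay below 1XIMO. The 1XIMO difference was 2.11 ± 0.67 (adjusted p = 0.0827), and 2.11 ± 0.61 without 6XIMO replicate 1 (adjusted p = 0.025). With the replicate number as a block it passed with all arrays (2.11, adjusted p = 0.0406). Kcnk2, the stretch-sensitive channel TREK-1, differed from Control by -0.21 ± 0.28 in 1XIMO and 0.15 ± 0.28 in 6XIMO. Kcnk9, the leak channel TASK-3 of the outer cortex, differed by -0.15 ± 0.75 and -0.47 ± 0.75. Neither passed in these comparisons with all arrays. Kcnk6, the channel TWIK-2, differed by -0.97 ± 0.85 in 6XIMO with all arrays (adjusted p = 0.439) and fell by 1.91 ± 0.62 without 6XIMO replicate 1 (adjusted p = 0.0272), and its other probe set past the filter was 0.78 higher there.

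**Figure D2:**
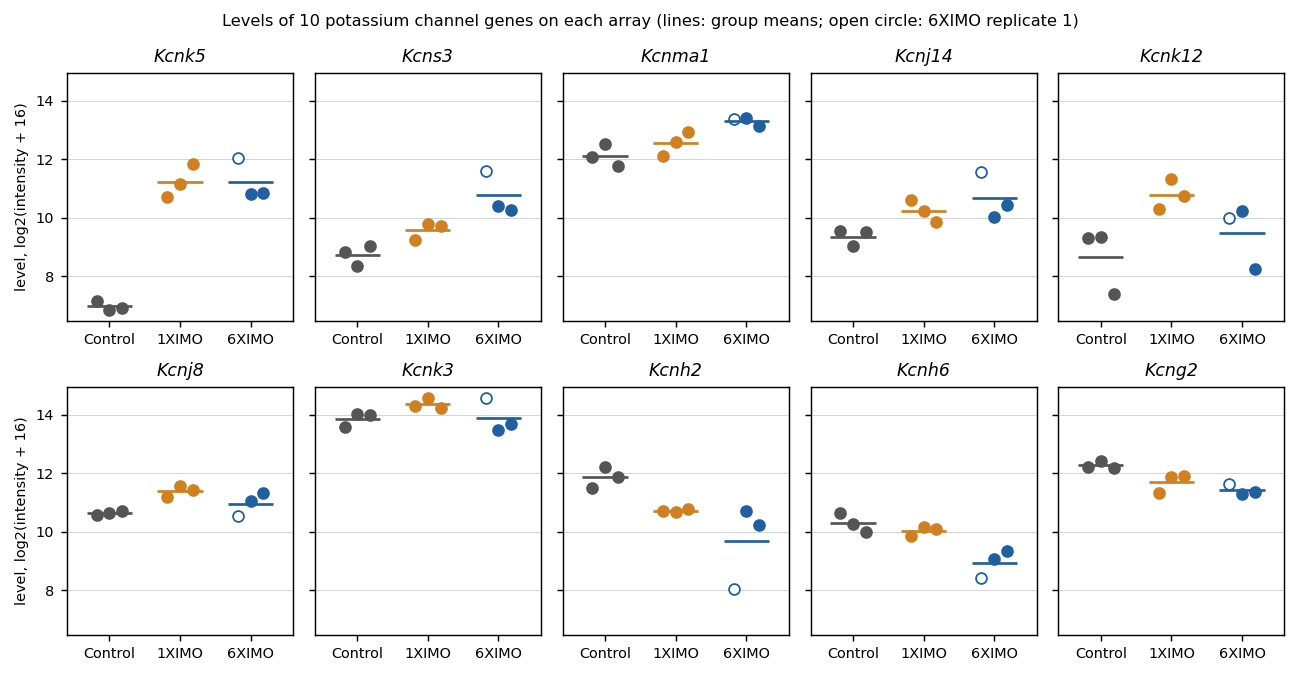
Levels, as log2(intensity + 16), of 10 potassium channel genes on each of the 9 arrays by group; lines are group means and the open circle is 6XIMO replicate 1. Kcnk5 lies near 7 in Control and above 10 in all stressed arrays, and Kcnh2 lies lower in all 6 stressed arrays than in Control. Levels of different genes come from different probe sets and cannot be set against each other.

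Among calcium-activated channels, Kcnma1, the pore of the large-conductance BK channel that repolarizes chromaffin cells and whose splicing in them is known to respond to stress hormones in the rat, was higher after 6 sessions. Its levels were 12.08, 12.52 and 11.77 in Control, 12.13, 12.61 and 12.94 in 1XIMO and 13.38, 13.40 and 13.15 in 6XIMO. The 3 6XIMO arrays lay above all other arrays, 6XIMO replicate 1 among them, and the 1XIMO arrays overlapped Control. Kcnma1 rose by 1.18 ± 0.26 in 6XIMO (adjusted p = 0.0105) and by 1.15 ± 0.26 without 6XIMO replicate 1 (adjusted p = 0.00468). In 1XIMO it differed by 0.44 ± 0.26 (adjusted p = 0.391), and the difference between 6XIMO and 1XIMO, 0.75 ± 0.26, did not pass (adjusted p = 0.0967). A second probe set past the filter differed by 1.30 in 6XIMO (0.81 without 6XIMO replicate 1) and 0.37 in 1XIMO. The remaining Kcnma1 probe set, below the filter, differed by 0.02 in 1XIMO. In 6XIMO that probe set went the other way, by -0.29 with all arrays and by -1.11 without 6XIMO replicate 1. The call was lost in 4 of 24 alternative fits, with median centring, with the second probe set (with and without 6XIMO replicate 1) and without Control replicate 3, where its adjusted p reached 0.127 at most.

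Kcnmb4, a BK channel beta subunit that slows gating, differed by 0.42 ± 0.24 in 1XIMO and -0.14 ± 0.24 in 6XIMO. Kcnn3, a small-conductance calcium-activated channel that shapes the pause after spikes, differed by 0.46 ± 0.60 and 0.24 ± 0.60. Neither passed with all arrays. Of the 3 tested pores activated by calcium or sodium, Kcnma1 was therefore the member that passed, in 6XIMO.

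The silent modifiers are voltage-gated family members that form no channel alone and alter channels of other subfamilies. Kcns3, which alters Kv2 channels, had levels of 8.83, 8.35 and 9.04 in Control, 9.26, 9.81 and 9.73 in 1XIMO and 11.62, 10.41 and 10.27 in 6XIMO. The 3 groups did not overlap, with Control lowest and 6XIMO highest. Kcns3 rose by 2.03 ± 0.42 in 6XIMO (4.08-fold, adjusted p = 0.00823), and by 1.60 ± 0.31 without 6XIMO replicate 1. It passed in all 23 alternative fits that included it (1.56 to 2.31), with the same limits as for Kcnk5, since Kcns3 also has 1 probe set. In 1XIMO the difference was 0.86 ± 0.42 (adjusted p = 0.271), and it passed without 6XIMO replicate 1 (adjusted p = 0.0394). The difference between 6XIMO and 1XIMO was 1.17 ± 0.42 (adjusted p = 0.105).

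Kcng2, another silent modifier, went the other way. Its levels were 12.21, 12.42 and 12.18 in Control, 11.32, 11.86 and 11.91 in 1XIMO and 11.63, 11.30 and 11.35 in 6XIMO. Every stressed array lay below every Control array. Kcng2 fell by 0.84 ± 0.21 in 6XIMO (adjusted p = 0.0192), and the 1XIMO difference was -0.57 ± 0.21 (adjusted p = 0.139), or adjusted p = 0.0298 without 6XIMO replicate 1. The 6XIMO call was lost in 11 of 24 alternative fits, among them those without any single Control array and those without 6XIMO replicate 2 or 3. All 3 of its probe sets differed in the same direction in 1XIMO, by -0.57, -0.57 and -0.54, the second of them below the filter. In 6XIMO, where the call was made, the same probe sets differed by -0.84, -0.07 and -0.11 with all arrays and by -0.95, -1.30 and -0.49 in replicates 2 and 3. Kcng3 had its highest level in 1XIMO replicate 1 (11.30, with 9.19 and 9.07 in the other 1XIMO arrays) and differed by 0.95 ± 1.02. In 6XIMO it differed by -0.85 ± 1.02 with all arrays (adjusted p = 0.581) and fell by 2.04 ± 0.69 without 6XIMO replicate 1 (adjusted p = 0.0323). Of 8 tested voltage-gated subunits proper (Kcna, Kcnc and Kcnd) 0 passed with all arrays in any comparison, and their medians were -0.37 in 1XIMO and -0.40 in 6XIMO. Kcnc4, the fast-inactivating channel Kv3.4, had levels of 11.60, 12.10 and 11.69 in Control and 12.32, 10.51 and 10.95 in 6XIMO, so that replicate 1 lay above and the others below. It differed by -0.54 ± 0.40 in 6XIMO with all arrays (adjusted p = 0.359) and fell by 1.07 ± 0.20 without 6XIMO replicate 1 (adjusted p = 0.00175). Kcnd3, an A-type channel, differed by -0.44 ± 0.52 in 1XIMO and 0.27 ± 0.52 in 6XIMO. Its 6XIMO direction rested on replicate 1 (level 11.54, against 9.65 and 9.40), and the difference was -0.41 ± 0.27 without it.

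Among the ether-a-go-go (Kcnh) and Kv7 (Kcnq) channels, 0 of 7 tested genes passed as higher in either stressed group, and 2 fell in 6XIMO with all arrays. Kcnh2, the ERG channel that slows firing and is best known from the heart, had levels of 11.50, 12.23 and 11.89 in Control. Its levels were 10.71, 10.67 and 10.77 in 1XIMO and 8.04, 10.73 and 10.25 in 6XIMO. All 6 stressed arrays lay below all Control arrays, and 6XIMO replicate 1 was far below the rest. Kcnh2 fell by 2.20 ± 0.58 in 6XIMO (adjusted p = 0.0225) and by 1.38 ± 0.23 without that array (adjusted p = 0.00095). The 1XIMO difference of -1.16 had an adjusted p of 0.285 with all arrays, SE 0.58, and of 0.00221 without 6XIMO replicate 1, SE 0.21. The 6XIMO call was lost in 5 of 24 alternative fits, among them those without Control replicate 2 or 3. Between 6XIMO replicates 2 and 3 and 1XIMO the difference was -0.22 ± 0.23 (adjusted p = 0.487).

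Kcnh6, a second ERG subunit, fell by 1.34 ± 0.35 in 6XIMO (adjusted p = 0.0213), with levels of 8.41, 9.09 and 9.36 against 10.65, 10.26 and 9.98 in Control. In 1XIMO it overlapped Control (-0.25 ± 0.35). The fall was lost in 7 of 24 alternative fits, among them those without Control replicate 1 or 2. Kcnq3 and Kcnq5 are subunits of the M-current, a slow brake on firing. Kcnq3 differed by -0.21 ± 0.70 in 6XIMO and Kcnq5 by -1.02 ± 0.35 (adjusted p = 0.057). The other Kcnq3 probe set past the filter differed by -0.79 with all arrays and by -2.41 in replicates 2 and 3. It passed in the limma fit of second probe sets without 6XIMO replicate 1 (adjusted p = 0.00444). Kcnq5 fell without 6XIMO replicate 1 (by 1.10 ± 0.30, adjusted p = 0.0135), as did Kcnh3 (by 1.31 ± 0.37, adjusted p = 0.0144, against -0.45 ± 0.65 and adjusted p = 0.651 with all arrays), but the other probe sets of Kcnq5 past the filter differed by 0.13 and -0.22 there. With each array centred on its median, or with quantile normalization, 0 potassium channel genes passed as lower in 6XIMO by limma with all 9 arrays. Over all genes 227 of 11287 and 943 of 11295 passed as lower there. The Kcnh2 difference stayed near its size, at -2.02 (adjusted p = 0.195) and -2.17 (adjusted p = 0.11). Without 6XIMO replicate 1, centring left Kcnh2 (-0.77, adjusted p = 0.0441) and Kcne3 as lower. Quantile normalization left Kcnh2 (-1.0, adjusted p = 0.00889), Kcng2, Kcnc4 and Kcne3, and added Kcnk3 (-0.55, adjusted p = 0.0283). Kcnk3 had not passed there before that normalization (-0.29 ± 0.17, adjusted p = 0.185). Over all 11287 genes 994 were lower with this centring and 2059 with this quantile normalization.

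Inward rectifiers pass potassium most easily near rest, and 1 of 8 tested members passed with all arrays. Kcnj14, the classical rectifier Kir2.4, had levels of 9.54, 9.03 and 9.51 in Control, 10.63, 10.24 and 9.85 in 1XIMO and 11.56, 10.02 and 10.44 in 6XIMO. All stressed arrays lay above all Control arrays. Kcnj14 rose by 1.31 ± 0.42 in 6XIMO (adjusted p = 0.0453), a call lost in 11 of 24 alternative fits, among them those without any single Control or 1XIMO array or 6XIMO replicate 3, and by 0.87 ± 0.30 without 6XIMO replicate 1 (adjusted p = 0.0354). In 1XIMO the difference was 0.88 ± 0.42 (adjusted p = 0.255), and 0.0321 was its adjusted p without that array.

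Kcnj8, the pore of ATP-sensitive channels of smooth muscle and pericytes, had levels of 10.58, 10.63 and 10.72 in Control, 11.19, 11.58 and 11.42 in 1XIMO and 10.53, 11.07 and 11.32 in 6XIMO. The 1XIMO arrays lay above all Control arrays, and among the 6XIMO arrays only replicate 1 did not. The 1XIMO difference was 0.75 ± 0.25 (adjusted p = 0.0904), and Kcnj8 rose in 1XIMO without 6XIMO replicate 1 (adjusted p = 0.00575). In 6XIMO it differed by 0.33 ± 0.25 with all arrays (adjusted p = 0.36) and rose by 0.55 ± 0.18 without replicate 1 (adjusted p = 0.0275). The summed signal of 6 smooth muscle and pericyte markers was 14.96 to 14.99 (log2) in 1XIMO and 14.22 to 14.61 in Control, and 13.85 to 15.20 in 6XIMO. In the fit without that array 2 of the 6 markers, Acta2 and Tagln, rose in 1XIMO and 0 fell. In 6XIMO 1, Tagln, rose and 1, Cspg4, fell. Of all genes 9.77% rose and 20.2% fell in 1XIMO in that fit, and 17.9% and 30.3% in 6XIMO. The part of these markers in the Kcnj8 result was not tested. Kcnj11, the ATP-sensitive pore of endocrine cells, differed by 0.31 ± 0.52 in 1XIMO and 0.38 ± 0.52 in 6XIMO, and by -0.26 ± 0.33 in 6XIMO without replicate 1. Kcnj5, a G protein-gated rectifier of the outer adrenal cortex, differed by 0.60 ± 0.27 (adjusted p = 0.236) and -0.14 ± 0.27. Kcnj4, the rectifier Kir2.3, differed by -0.05 ± 0.52 and -0.80 ± 0.52 (adjusted p = 0.29), and it fell by 1.29 ± 0.41 in 6XIMO without replicate 1 (adjusted p = 0.0244).

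Accessory subunits tune the pores they bind, and 0 of 9 tested members passed by limma with all arrays in 1XIMO or 6XIMO against Control. Their fold changes ran from -0.43 (Kcne2) to 0.42 (Kcnmb4) in 1XIMO and from -1.11 (Kcnip2) to 0.64 (Kcnip1) in 6XIMO. Kcnip3, a calcium sensor that binds A-type channels and also acts as a transcriptional repressor, differed by 0.27 ± 0.31 and -0.11 ± 0.31. Kcne3, a small subunit of voltage-gated channels, had 6XIMO levels of 11.07, 6.30 and 7.99 against 9.46, 9.28 and 8.71 in Control, with replicate 1 above all and the others below all Control arrays. It differed by -0.70 ± 1.01 in 6XIMO with all arrays (adjusted p = 0.654) and fell by 2.00 ± 0.56 without replicate 1 (adjusted p = 0.0144). Kcne2, Kcnip1 and Kcnip2 are named here because of their values.

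The test between 6 sessions and 1 session drew on the same arrays. Without 6XIMO replicate 1, 10 of 45 tested genes were lower in 6XIMO than in 1XIMO (22.2%, against 17% of all genes) and 0 were higher by limma (15.3% of all genes, 3 of the 45 at an unadjusted p under 0.05). The lower genes included Kcnk3, at -0.78 ± 0.17 (adjusted p = 0.0079), and Kcnc4, at -1.39 ± 0.20 (adjusted p = 0.0012). With each array then centred on its median, 2 genes were lower, Kcnc4 and Kcng3, and 5 were higher, Kcnip1, Kcnk2, Kcnma1, Kcns3 and Kcnt1. Over all 11287 genes 593 were lower and 3816 higher with that centring, at a median of 0.43. Which direction held more calls thus depended on the scaling, among all genes as among the 45. With all 9 arrays the median log2 fold change was -0.38 for the tested genes and -0.08 for all genes. Of the known chromaffin and adrenal channel genes not yet given in that comparison, with all arrays, Kcnj5 differed by -0.74 ± 0.27, Kcnmb4 by -0.56 ± 0.24, Kcnj8 by -0.42 ± 0.25 and Kcnip3 by -0.38 ± 0.31. Kcnd3 differed by 0.71 ± 0.52, Kcnk2 by 0.37 ± 0.28 and Kcnj11 by 0.07 ± 0.52. Kcnk9 differed by -0.32 ± 0.75, Kcnn3 by -0.22 ± 0.60 and Kcnq3 by -0.05 ± 0.70. None of these passed, at adjusted p-values of 0.113 to 0.970. Without replicate 1 Kcnj5 passed as lower (-0.89 ± 0.25, adjusted p = 0.0217), and Kcnj11 (-0.58 ± 0.33) and Kcnn3 (0.37 ± 0.41) took the other sign without passing.

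Of the 30 genes below the filter, fitted with no filter over 14217 genes, 0 passed in 1XIMO against Control with all arrays, as part of 1 call among 75 (3.12% of all genes higher and 3.59% lower). Between 6XIMO and 1XIMO 0 of the 75 passed by limma (5 higher and 6 lower at an unadjusted p under 0.05), against 3.33% and 3.14% of all genes. In 6XIMO against Control 2 of the 30 passed, beside 6 tested genes, where 7.28% of all genes were higher and 10.7% lower. Kcnh8, an ether-a-go-go channel of neurons, had levels of 5.38, 6.22 and 5.46 in Control, 6.17, 6.30 and 6.09 in 1XIMO and 9.44, 7.43 and 8.94 in 6XIMO. It rose by 2.92 ± 0.68 (adjusted p = 0.0159), and by 2.50 ± 0.59 without 6XIMO replicate 1. Kcnmb1, the BK beta subunit of smooth muscle, fell by 2.16 ± 0.67 (adjusted p = 0.0497), with levels of 7.10, 5.23 and 6.14 against 8.39, 8.42 and 8.12 in Control. Kcnk1, the weak leak channel TWIK-1, differed by -0.08 ± 0.90 in 1XIMO and -0.37 ± 0.90 in 6XIMO, and Kcnn1, a small-conductance calcium-activated channel, by -1.0 ± 0.96 and -0.93 ± 0.96. Kcnn1 fell by 2.17 ± 0.52 in 6XIMO without replicate 1 (adjusted p = 0.00814). Without 6XIMO replicate 1, 5 of the 75 were higher and 3 lower in 1XIMO (7.75% and 15.1% of all genes), 5 and 19 in 6XIMO (14.5% and 25.9%), and 2 and 13 between 6XIMO and 1XIMO (12% and 14.6%). Some dim probe sets were bright on 6XIMO replicate 1: Kcna1, a neuronal delayed rectifier, was at 11.25 there against 5.44 to 6.94 on the other 8 arrays. The choice of Kcnh8 and Kcna1 was made after seeing their values.

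Proteins that bind or regulate these channels lie outside the prefix. Of 11 tested partners, 0 were higher and 1 lower in 1XIMO with all arrays (all genes 4.2% and 5.31%). In 6XIMO 0 were higher and 2 lower (all genes 9.36% and 14.9%). Their medians were 0.06 and -0.09, beside -0.13 and -0.23 over all genes. Amigo1, a partner of Kv2 channels, had levels of 12.00, 12.13 and 12.14 in Control, 10.86, 11.56 and 11.07 in 1XIMO and 10.90, 10.48 and 10.55 in 6XIMO. It fell by 0.93 ± 0.23 in 1XIMO (adjusted p = 0.0335) and by 1.45 ± 0.23 in 6XIMO (adjusted p = 0.00266), and every stressed array lay below every Control array. Dlg1, a scaffold that clusters Kv1 and inward rectifier channels, fell by 1.17 ± 0.21 in 6XIMO (adjusted p = 0.0042). Sgk1, a kinase that raises channel number at the membrane, had levels of 13.80, 13.65 and 13.88 in 1XIMO and 12.90, 12.71 and 12.61 in Control. Its difference was 1.04 ± 0.34 (adjusted p = 0.0919), and 0.000263 was its adjusted p without 6XIMO replicate 1. Of 8 tested genes of the sodium-potassium pump, which builds the gradient the channels use, 0 passed against Control with all arrays. The shares of all genes are those given beside the partners. The pump subunits Atp1b1 (by 1.06 ± 0.15) and Atp1b3 (by 0.64 ± 0.12) and the pump regulator Fxyd5 (by 1.36 ± 0.18) rose in 6XIMO without 6XIMO replicate 1, and Atp1b2 fell by 1.09 ± 0.32. In that fit Fxyd5 also rose in 1XIMO, by 0.9 ± 0.16 (adjusted p = 0.0023). The partner Akap9 passed as lower there, at -0.59 ± 0.13 in 1XIMO (adjusted p = 0.00685) and -0.41 ± 0.15 in 6XIMO (adjusted p = 0.038). Of all genes 9.77% were higher and 20.2% lower in 1XIMO in that fit, and 17.9% and 30.3% in 6XIMO.

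Markers of both medulla and cortex were bright on every array, at intensities of at least 1390 and 2010. The summed log2 signal of 9 chromaffin markers was 18.36 to 18.95 in Control, 18.26 to 19.22 in 1XIMO and 20.05 to 21.21 in 6XIMO, and that of 8 cortex markers 18.33 to 18.86, 18.14 to 19.44 and 19.95 to 20.90. All 9 and all 8 passed the filter. In 6XIMO 4 chromaffin markers and 6 cortex markers rose and 0 fell, where 9.36% of all genes rose and 14.9% fell. Both sums were thus higher in each 6XIMO array than in any Control array, beside the 6XIMO rises of Kcnma1, Kcns3 and Kcnj14 above, and their part in these was not tested. In 1XIMO, where Kcnk5 rose, both sums overlapped Control, and 1 of their markers, Scarb1 of the cortex, rose. Of all genes 4.2% rose and 5.31% fell in 1XIMO. Of the markers of glia (5), endothelium (5), smooth muscle and pericytes (6) and leukocytes (6), 0 passed in 1XIMO by limma with all arrays, and in 6XIMO 1 of each list fell (S100b, Kdr, Cspg4 and Csf1r) and 0 rose. Without 6XIMO replicate 1, every one of these lists had a rise in 6XIMO. Mbp, Pmp22, Flt1, Tek, Tagln and Cd74 rose, and S100b, Kdr, Cspg4, Csf1r and Ptprc fell, beside 17.9% and 30.3% of all genes. For 1XIMO that fit had Flt1, Acta2 and Tagln as higher and Cnp, Kdr and Tek as lower, beside 9.77% and 20.2% of all genes.

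**Figure D3:**
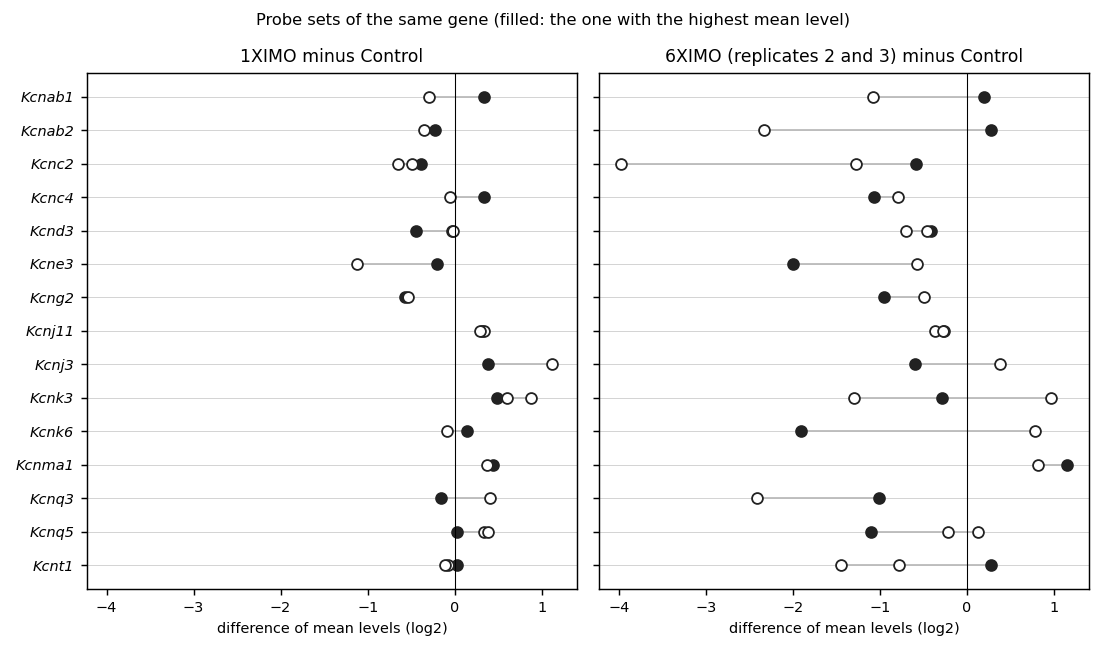
Differences of mean log2 level from Control for each probe set of the 15 potassium channel genes with several probe sets past the filter, in 1XIMO (left) and in 6XIMO replicates 2 and 3 (right); filled circles are the probe sets used in the tests and lines join probe sets of a gene. The points of a gene lie close together in 1XIMO (median spread 0.36) and farther apart in 6XIMO (median spread 1.27).

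Several probe sets of a gene give a second reading of the same transcript, at other positions. In 1XIMO the probe sets of 10 of 15 genes all differed from Control in the same direction, with a median spread within a gene of 0.36 and a largest spread of 0.92 (Kcne3). In 6XIMO replicates 2 and 3 this held for 8 of 15, with a median spread of 1.27 and a largest spread of 3.38 (Kcnc2). With 6XIMO replicate 1 included it held for 10 of 15, with a median spread of 0.82 and a largest of 2.03 (Kcnk6). Kcnma1 was higher on both its probe sets past the filter, and Kcng2 was lower on both. Kcnk5, Kcns3, Kcnj14, Kcnh2, Kcnh6, Kcnj8 and Kcnk12 have 1 probe set each, so no second reading was at hand.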

How the data were processed

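RNA of 9 adrenal medulla samples was measured on oligonucleotide arrays that were labelled by the manufacturer, per the labels. The deposited table holds 1 linear intensity per probe set and array. All arrays shared 1 scale at deposit (trimmed means of 2500.6 to 2501, with 2% removed at each end). How probes were summarized and background was removed is not given in the sources used here. Scanner files and detection calls were not used here. Of 31099 probe sets 57 were array controls and 20826 had 1 gene symbol. Values were taken as log2(intensity + 16), the dimmest 30% of probe sets were left out, and limma 3.58.1 (R 4.3.3; lmFit, eBayes with trend, two-sided) was fitted to 11287 genes with all 9 arrays and 6 residual degrees of freedom. The fit was tested on simulated data. Array number limits the precision.

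Named genes were up to 10 rises and 10 falls past the threshold per comparison, with all arrays and without 6XIMO replicate 1, plus known chromaffin and adrenal channel genes. Partner, pump and marker lists, and the members themselves, were chosen with earlier results of these data known. The promoter motifs were chosen likewise. Alternatives were other filters, normalizations, constants, probe sets, thresholds, array weights, the replicate number as a block, fits restricted to a pair of groups, and leaving out arrays. The no-filter, centring and second-probe-set fits without 6XIMO replicate 1, and the use of the naming rule in that fit, were added after seeing the data. Some of the known channel genes were not analysed here. Deviations from the group means of same-numbered arrays correlated at 0.508, 0.36 and 0.25 between Control and 1XIMO, and at 0.06 to 0.158 for pairs with 6XIMO. Arrays of different groups and different numbers correlated at -0.422 to 0.275, the highest for Control replicate 2 with 1XIMO replicate 3. Same-numbered arrays of Control and 1XIMO may be paired, but 0.275 lies above the 0.25 of replicate 3, so these values do not settle it. The reported fits used no pairing in any comparison, and the number entered only in the block alternative, fitted to all 9 arrays. The labels do not say what a number stands for.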

Additional observations from a re-analysis of the deposited data

Results flagged for a closer look

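The responses to 6 sessions and to 1 session differed for 10 potassium channel genes, by the limma test of 6XIMO against 1XIMO at an adjusted p under 0.05, in the fit without 6XIMO replicate 1. In that fit 22.2% of the 45 were lower and 0 higher, beside 17% and 15.3% of all genes. The share of lower genes was thus not far above that of all genes. With all 9 arrays 0 of the 45 tested genes passed (7 at an unadjusted p under 0.05). All 10 were lower in 6XIMO on the probe set tested. The log2 differences were -3.0 for Kcng3, -2.05 for Kcnk6, -1.80 for Kcne3, -1.39 for Kcnc4 and -1.25 for Kcnj4. They were -1.16 for Kcnh3, -1.12 for Kcnq5, -0.89 for Kcnj5, -0.82 for Kcnh6 and -0.78 for Kcnk3. Of these, Kcnc4 and Kcng3 also passed as lower with each array centred on its median and with quantile normalization, in each case without that array, and Kcnk3 with quantile normalization. Other probe sets past the filter went the other way in the same comparison for Kcnk6 (0.87), Kcne3 (0.55) and 1 of the other 2 of Kcnk3 (0.35), and the same way for Kcnc4 (-0.74). In 6XIMO replicates 2 and 3 the actin 3′/5′ ratios were 6.11 and 8.87, against 1.57 to 1.99 in 1XIMO, and the part of RNA quality in these differences was not tested.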

How the results depend on the processing

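Kcnk5 kept its rise in both comparisons with Control, and Kcns3 its rise in 6XIMO, in every alternative fit that included them. Counts of tested potassium channel genes moved as follows, given as higher and lower in 1XIMO against Control, in 6XIMO against Control, and in 6XIMO against 1XIMO, beside 1 and 0, 4 and 3, and 0 and 0 in the reported fit. Counts over all genes are given with them, out of 11287 unless stated. In the reported fit those were 474 and 599, 1057 and 1681, and 588 and 523. Array weights, whose estimate did not fully converge, gave 10 and 2, 6 and 12, and 2 and 16. Over all genes they gave 1523 and 2975, 2398 and 4157, and 2518 and 3070. Fits of only the groups compared gave 4 and 2, 3 and 1, and 0 and 0. Over all genes these gave 1055 and 2155, 669 and 848, and 0 and 3. Quantile normalization and median centring each left 0 past the threshold as lower in 6XIMO, with Kcnh2 at -2.17 and -2.02. Over all genes 943 of 11295 and 227 were lower there. The second probe set gave 2 higher in 6XIMO and 1 lower in 6XIMO against 1XIMO (all genes 819 and 506). An adjusted p of 0.01 gave 2 and 0 in 6XIMO (all genes 505 and 648). One of 0.1 gave 3 higher in 1XIMO (all genes 621), 5 lower in 6XIMO (2404), and 1 and 2 between them (1021 and 1013). Without 6XIMO replicate 1, quantile normalization gave 6 and 2, 8 and 5, and 2 and 3. Over all genes it gave 1267 and 2138, 1898 and 2059, and 1406 and 1097. In settings added after seeing the data, again without that array, centring gave 7 and 1, 9 and 2, and 5 and 2, no filter gave 5 and 3, 5 and 19, and 2 and 13, and the second probe set gave 5 and 1, 4 and 12, and 0 and 9. Over all genes this centring gave 1134 and 1091, 3950 and 994, and 3816 and 593. No filter gave 1102 and 2152, 2056 and 3684, and 1705 and 2082 of 14217 genes. The second probe set gave 932 and 1782, 1615 and 3441, and 1364 and 2024 over all genes. Leaving out 1 array at a time gave 1 to 6 and 0 to 2, 2 to 5 and 0 to 12, and 0 to 0 and 0 to 10. Over all genes the ranges were 241 to 1103 and 119 to 2285 in 1XIMO, and 605 to 2016 and 777 to 3421 in 6XIMO. Between 6XIMO and 1XIMO they were 0 to 1729 and 0 to 1924. The high counts came from leaving out 6XIMO replicate 1, the 2 higher in 6XIMO from leaving out Control replicate 3, and the 0 lower there from leaving out Control replicate 2. The cause was not tested.

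Sign changes that passed the threshold were these. The sign of Kcnk3 in 6XIMO against Control turned with the second probe set (-1.13, and -1.30 without 6XIMO replicate 1) and with quantile normalization without that array (-0.55), from 0.03. That of Kcnj11 in 6XIMO against 1XIMO turned with array weights (-0.66, from 0.07). Without regard to the threshold, the sign turned in some alternative for 8 of 26 named genes in 1XIMO against Control, 15 in 6XIMO against Control and 14 in 6XIMO against 1XIMO, with 0 of the called results among them; Kcnq5 in 6XIMO against Control ran from -1.12 to 1.25 and Kcnk6 from -2.43 to 1.06. Of the other comparisons of named genes under an alternative, 1668 kept their side of the threshold, 38 lost it and 135 gained it. Median centring moved the all-gene median of 6XIMO against Control, on the log2 scale, from -0.23 to -0.06, and to 0.38 without 6XIMO replicate 1. The replicate block gave 2 higher in 1XIMO, where Kcnk12 passed as well (adjusted p = 0.0406), and 446 of all 11287 genes were higher. The replicate block changed no other call of the named genes.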
